A study of Homo sapiens with 9 samples.

Results

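The 32 genes described here encode the enzymes that make cholesterol and fatty acids, together with the proteins that control them. They were taken as a list of gene symbols by their known roles, with earlier results of these data known, and each of the 32 symbols was found in 1 row of the 58735 genes in the deposited table. All 32 were among the 16350 genes that passed the expression filter. RNA came from SKOV3, an established human ovarian cancer cell line, grown as 3 groups of 3 libraries: cells expressing WT CDK9, the same cells given an ALK inhibitor for 24 h, and cells expressing the phospho-deficient CDK9 mutant Y19F, written Tyr19Phe in the paper and below. The labels name no inhibitor for the first and the last group. The study describes its stable lines as CDK9-depleted SKOV3 cells into which WT or mutant CDK9 was put back, so WT CDK9 cells are also engineered cells. The inhibitor and its dose in this experiment, and whether each line was a clone or a pool, are not given in the sources used here. A line effect and an effect of the mutation cannot be told apart in the Tyr19Phe CDK9 comparison, which has 1 line on each side.

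Cholesterol is built from acetyl-CoA through the mevalonate pathway, which makes isoprenoid units, and then through squalene and a chain of sterol intermediates. Fatty acids are built from the same acetyl-CoA by carboxylation, chain assembly, elongation and desaturation. Both routes are controlled by the SREBP transcription factors, which are held in the endoplasmic reticulum by SCAP and the INSIG proteins when sterols are plentiful and are released to the nucleus when sterols fall. SREBP-2, from SREBF2, acts mainly on cholesterol genes, and SREBP-1, from SREBF1, mainly on fatty acid genes. The cells were grown in fetal bovine serum, a source of lipoprotein cholesterol.

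The promoters of 5 of the genes are printed because the RNA of SREBF2, MVD and STARD4 was called higher and that of TM7SF2 and ELOVL6 lower in Tyr19Phe CDK9 cells. These 5 were chosen after their values had been seen. Each run holds the 250 bases before the RefSeq start site, written 5′ to 3′ on the gene's strand (build GRCh38.p14). Capitals mark matches on either strand to the letters TCACNCCAC, a sterol regulatory element-like motif that SREBPs are known to bind, and to CCAAT, the box bound by NF-Y, a factor known to act beside SREBPs. The 2 motifs share no bases in these runs. The SREBF2 window lies at chr22:41832855-41833104 on the plus strand, MVD at chr16:88663092-88663341 on the minus strand, STARD4 at chr5:111512536-111512785 on the minus strand, TM7SF2 at chr11:65111622-65111871 on the plus strand and ELOVL6 at chr4:110198616-110198865 on the minus strand.
SREBF2: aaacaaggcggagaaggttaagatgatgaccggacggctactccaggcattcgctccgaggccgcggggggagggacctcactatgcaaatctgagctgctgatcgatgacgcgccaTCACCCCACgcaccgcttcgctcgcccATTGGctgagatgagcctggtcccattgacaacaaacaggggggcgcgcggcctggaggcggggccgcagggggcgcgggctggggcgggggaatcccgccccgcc
MVD: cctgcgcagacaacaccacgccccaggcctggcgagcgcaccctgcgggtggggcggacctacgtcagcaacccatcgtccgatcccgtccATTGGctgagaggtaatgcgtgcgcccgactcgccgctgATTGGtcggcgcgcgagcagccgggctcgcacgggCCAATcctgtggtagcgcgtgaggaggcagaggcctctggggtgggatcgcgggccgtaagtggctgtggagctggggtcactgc
STARD4: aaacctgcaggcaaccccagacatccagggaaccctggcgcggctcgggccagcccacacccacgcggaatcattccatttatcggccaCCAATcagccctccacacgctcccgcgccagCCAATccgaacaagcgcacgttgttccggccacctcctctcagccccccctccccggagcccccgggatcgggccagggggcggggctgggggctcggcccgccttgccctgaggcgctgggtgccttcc
TM7SF2: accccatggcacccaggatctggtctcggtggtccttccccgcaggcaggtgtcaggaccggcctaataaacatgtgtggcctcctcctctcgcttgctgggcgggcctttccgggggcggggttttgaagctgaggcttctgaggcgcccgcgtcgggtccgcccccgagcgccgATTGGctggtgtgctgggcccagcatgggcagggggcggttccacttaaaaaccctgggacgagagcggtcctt
ELOVL6: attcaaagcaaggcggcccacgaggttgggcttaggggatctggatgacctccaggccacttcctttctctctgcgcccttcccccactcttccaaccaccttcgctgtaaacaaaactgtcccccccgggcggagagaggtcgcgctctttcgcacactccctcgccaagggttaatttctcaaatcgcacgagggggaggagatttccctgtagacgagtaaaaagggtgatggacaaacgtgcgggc
In SREBF2 the sterol element-like match begins 133 bases before the start site and a CCAAT match 106 bases before it. MVD has 3 CCAAT matches, STARD4 has 2 and TM7SF2 has 1, and the ELOVL6 window holds neither motif. RefSeq windows were found for 28 of the 32 genes, 39 windows in all, and none for FASN, FDFT1, ACAT2 and SQLE. Of these windows, 1 (2.56%) held TCACNCCAC, that of SREBF2, against 0.883% of all 35116 windows of this length. CCAAT was present in 24 (61.5%) of the 39, against 32.01% of all windows. Some genes have more than 1 window, and by gene 20 of the 28 had CCAAT. The share by gene, over all genes or over the tested ones, was not counted. These letters are a description of the windows and do not show binding.

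Total counts ranged from 18169050 to 20974903 in the WT CDK9 and inhibitor libraries and from 26485891 to 29320184 in the Tyr19Phe CDK9 libraries, a median depth 1.45 times the WT CDK9 one. For CDK9 itself the log2 fold change (with its SE, the standard error) against WT CDK9 cells was -0.09 (SE 0.08, adjusted p = 0.665) in the inhibitor group. It was 0.18 (SE 0.08, adjusted p = 0.106) in the Tyr19Phe CDK9 group. Between these 2 groups, CDK9 was called higher by edgeR in Tyr19Phe CDK9 cells than with the inhibitor (0.27, SE 0.08, adjusted p = 0.00961). The counts do not separate the introduced from the endogenous gene. Of the epithelial and ovarian markers, ERBB2, KRT7, KRT8, KRT18, KRT19 and PAX8 had at least 2422 counts in every library and EPCAM 273 to 442, whereas WT1 had 7 to 52 and MUC16 at most 9. In Tyr19Phe CDK9 cells KRT19 (-1.24 on the log2 scale), EPCAM (-0.82) and ERBB2 (-0.29) were called lower and KRT8 (0.38) and KRT18 (0.39) higher than in WT CDK9 cells, with adjusted p from 3.86e-17 to 1.75e-05. With the inhibitor ERBB2 (0.54) and KRT19 (0.21) were called higher and KRT7 (-0.35) lower, with adjusted p from 2.96e-13 to 0.0167. Of the markers of other cell types, PTPRC, CD3E, PECAM1 and COL3A1 had at most 4 counts in any library and VWF at most 17, whereas COL1A1, a fibroblast collagen gene, had 807 to 2714. COL1A1 had 103 to 107 CPM (defined below) in WT CDK9, 115 to 149 with the inhibitor and 30.4 to 45.1 in Tyr19Phe CDK9 libraries, and the part of these markers in the results was not tested. ALK inhibitor replicate 2 and Tyr19Phe replicate 3 had fewer genes with a count than the other libraries of their groups, 19944 against at least 21911 and 20635 against at least 22609.

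Per kilobase of the listed gene length, the WT CDK9 level of the 32 genes ranged from 0.932 to 71.0 CPM per kilobase (CPM is counts per 1000000, scaled by TMM), with a median of 12.4. ACLY, which makes cytosolic acetyl-CoA from citrate, stood highest, followed by FASN, the fatty acid synthase, at 45.3 and SC5D, a late sterol desaturase, at 43.0 CPM per kilobase. SREBF2 had 26.5 CPM per kilobase and SREBF1 1.41. INSIG1 had 13.3 and INSIG2 3.88. HSD17B7, a sterol ketone reductase, was lowest. Counts in single libraries ranged from 56 for HSD17B7 to 13052 for FASN.

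Counts of some of these genes may be too high or too low where they share sequence with other genes. How reads in shared exons were assigned is not given in the sources used here. In the reference annotation, exons of other listed genes on the same strand covered 68.2% of the exon bases of CYP51A1, the lanosterol demethylase, so its 3.51 to 6.66 CPM over the 9 libraries are uncertain as a level. On either strand, 15% or more was covered in 5 genes, which were CYP51A1, HMGCS1 (37.7%), ACAT2 (20.9%), FDPS (18.6%) and IDI1. The strand setting of the counting is not given in the sources used here, so antisense reads cannot be told apart for the latter 4. HSD17B7 has a near-identical pseudogene copy, and its values are uncertain for that reason.

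**Figure D1:**
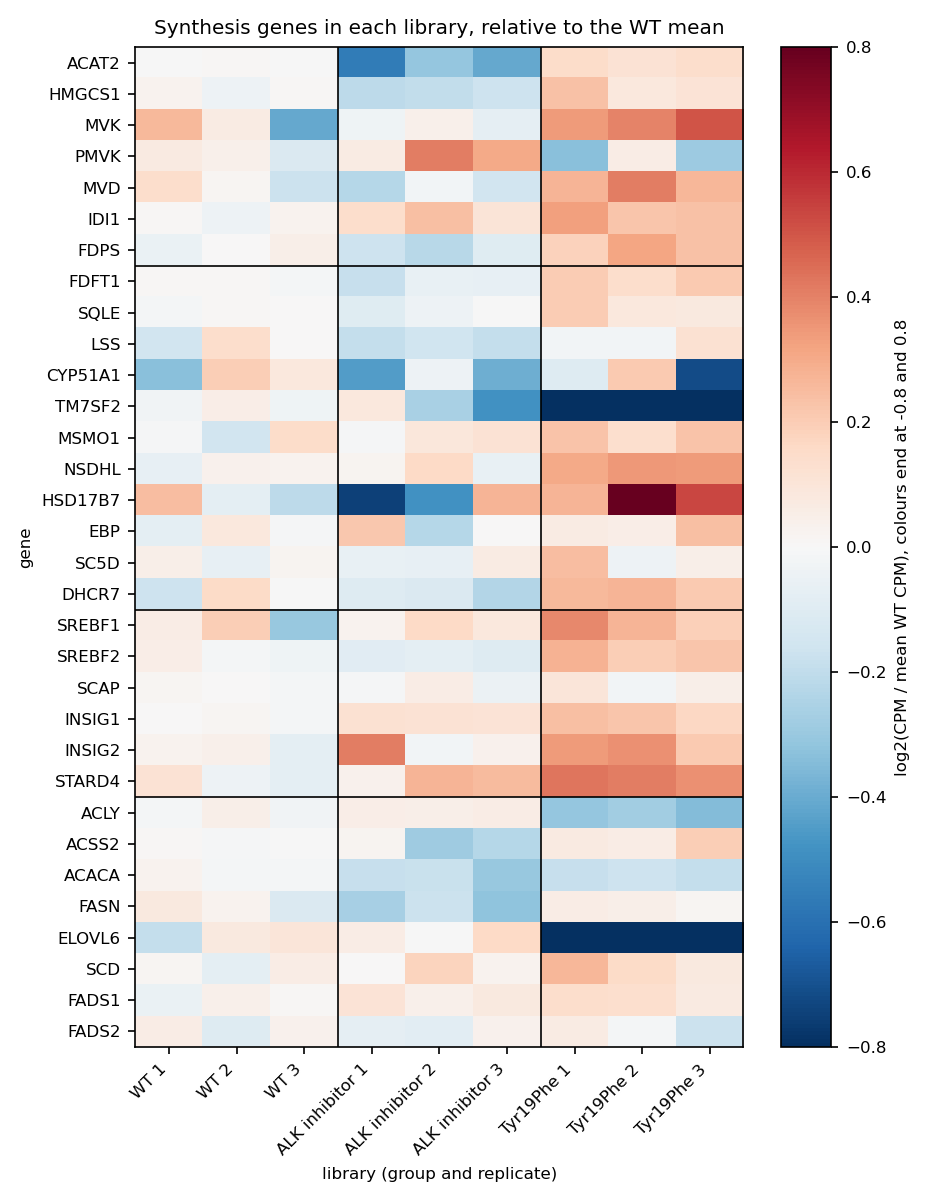
Heat map of log2(CPM / mean WT CPM) for the 32 genes (rows, by role) in the 9 libraries (columns), with colours ending at -0.8 and 0.8. ACAT2, HMGCS1, ACACA and FASN are blue in the 3 inhibitor libraries, most cholesterol genes are shades of red in the 3 Tyr19Phe libraries, and TM7SF2 and ELOVL6 are dark blue there.

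With the ALK inhibitor, 4 of the 32 genes were called lower and 0 higher than in WT CDK9 cells by edgeR's quasi-likelihood test (Benjamini-Hochberg adjusted p under 0.05 over all tested genes). Of all tested genes, 2.73% were called lower and 1.82% higher. They were ACAT2 and HMGCS1 of the 7 mevalonate genes and ACACA and FASN of the 8 fatty acid genes. The median log2 fold change of the 32 genes was -0.03, against -0.0010 for all tested genes. No gene of the 11 squalene and sterol steps and none of the 6 SREBP pathway and sterol carrier genes was called, and DESeq2 also called 4 members lower and 0 higher. At an unadjusted p under 0.05, 2 members, IDI1 and STARD4, were above 0. LSS and FDPS, which were not called, were below 0 at that threshold. Without WT replicate 1, LSS was called lower by edgeR (log2 fold change -0.25, SE 0.07, adjusted p = 0.0382).

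ACAT2 (ENSG00000120437, chromosome 6 from 159760328 to 159779055), the cytosolic thiolase that joins acetyl-CoA units, had 71.7, 72.4 and 71.7 CPM in the WT CDK9 libraries and 48.9, 58.1 and 54.2 CPM with the inhibitor. The groups did not overlap, and ACAT2 fell by 25.4% (log2 fold change -0.42, SE 0.07, adjusted p = 1.05e-04). Non-overlap is given as a description here and below, and adds no support to a call. In a two-sided exact test of 3 against 3 libraries the smallest possible p is 0.1. The share of all tested genes whose groups did not overlap was not counted. The call was kept in 6 of 6 fits with a library left out. HMGCS1 (ENSG00000112972, chromosome 5 from 43289395 to 43313512), which makes the next intermediate, had 148, 141 and 146 CPM in WT CDK9 and 126, 127 and 129 CPM with the inhibitor. This was a fall by 12.5% without overlap (log2 fold change -0.19, SE 0.05, adjusted p = 0.0244), but the call was kept in 1 of 6 fits with a library left out, that without WT replicate 2 (adjusted p up to 0.141 in the others).

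FASN (ENSG00000169710, chromosome 17 from 82078333 to 82098332) had 449, 434 and 391 CPM in WT CDK9 and 354, 376 and 340 CPM with the inhibitor. All inhibitor libraries lay under all WT CDK9 libraries, and the fall was by 16.0% (log2 fold change -0.25, SE 0.05, adjusted p = 3.55e-04, kept in 6 of 6 fits with a library left out). ACACA (ENSG00000278540, chromosome 17 from 37084988 to 37406818), the acetyl-CoA carboxylase that commits acetyl-CoA to fatty acids, had 166, 161 and 161 CPM in WT CDK9 and 143, 144 and 132 CPM with the inhibitor. It fell by 14.2% without overlap (log2 fold change -0.22, SE 0.05, adjusted p = 0.0050). Without ALK inhibitor replicate 3 the adjusted p of ACACA was 0.0628, and 2 members in place of 4 were called lower.

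Around these 4 genes, the other tested genes within 5 Mb had medians from -0.03 to 0.08 on the log2 scale in the same comparison. Of the other mevalonate genes, MVD had a log2 fold change of -0.13 (SE 0.09), FDPS -0.16 (SE 0.08), MVK -0.02 (SE 0.13), IDI1 0.16 (SE 0.07) and PMVK 0.26 (SE 0.15), with adjusted p from 0.205 to 0.970. SREBF2 had 187 to 189 CPM with the inhibitor against 195 to 207 CPM in WT CDK9, a log2 fold change of -0.09 (SE 0.05, adjusted p = 0.337). Its groups did not overlap, yet the difference did not pass the test.

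**Figure D2:**
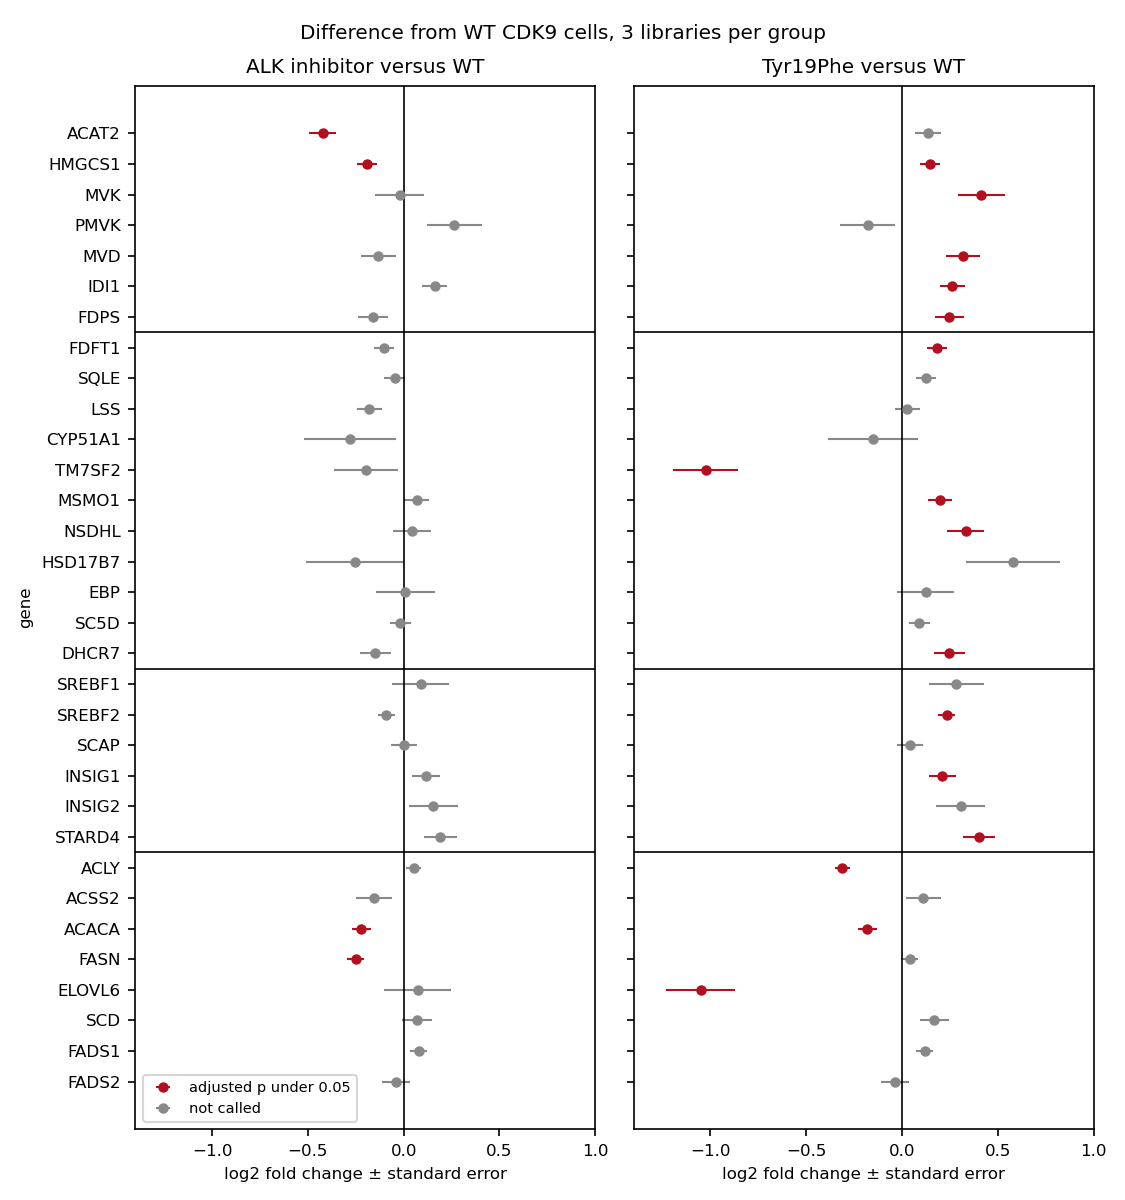
Log2 fold change ± standard error of each of the 32 genes, by role from top (mevalonate steps) to bottom (fatty acid synthesis), for the ALK inhibitor (left) and Tyr19Phe CDK9 (right) against the same 3 WT CDK9 libraries; red points have an adjusted p under 0.05. On the left 4 genes are red, all below 0, and on the right 12 are red above 0 and 4 below 0.

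In Tyr19Phe CDK9 cells, 12 of the 32 genes were called higher than in WT CDK9 cells and 4 lower. Of all tested genes, 7.61% were called higher and 10.4% lower. The 12 were HMGCS1, MVK, MVD, IDI1 and FDPS of the mevalonate steps, FDFT1, MSMO1, NSDHL and DHCR7 of the squalene and sterol steps, and SREBF2, INSIG1 and STARD4. The 4 called lower were TM7SF2 of the sterol steps and ACLY, ACACA and ELOVL6 of fatty acid synthesis. The median log2 fold change was 0.17 for the 18 cholesterol genes, 0.0008 for the 8 fatty acid genes and 0.0035 for all tested genes. The increases were small, between 10.7% and 33.2%, and the count of 12 fell to 6 without WT replicate 1 and to 7 without WT replicate 3.

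Of the mevalonate steps, MVD (ENSG00000167508, chromosome 16 from 88651935 to 88663161), the decarboxylase that makes isopentenyl diphosphate, had 44.4, 40.7 and 35.7 CPM in WT CDK9 and 48.7, 53.6 and 48.4 CPM in Tyr19Phe CDK9 cells. The groups did not overlap, and the log2 fold change was 0.32 (SE 0.09, adjusted p = 0.00889). MVK, the mevalonate kinase, had 24.5, 21.4 and 15.4 CPM in WT CDK9 and 25.9, 26.9 and 28.97 CPM in Tyr19Phe CDK9 cells, a log2 fold change of 0.41 (SE 0.12, adjusted p = 0.0164). Its WT CDK9 libraries were spread widely, with replicate 3 lowest. Without WT replicate 3 neither MVK nor MVD was called, and the same held for MVK without Tyr19Phe replicate 3 and for MVD without Tyr19Phe replicate 2 (adjusted p up to 0.188 for MVK and 0.0877 for MVD).

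IDI1, the isomerase of isopentenyl diphosphate, rose from 66.9, 64.6 and 67.6 CPM to 83.4, 77.3 and 78.1 CPM (log2 fold change 0.26, SE 0.07, adjusted p = 0.00376). FDPS, the farnesyl diphosphate synthase, rose from 46.6, 48.5 and 49.9 CPM to 55.0, 60.1 and 56.97 CPM (log2 fold change 0.25, SE 0.07, adjusted p = 0.0181). HMGCS1 had 171, 154 and 157 CPM in Tyr19Phe CDK9 cells, above every WT CDK9 library (log2 fold change 0.15, SE 0.05, adjusted p = 0.0433). With a library left out, IDI1 was called in 6 of 6 fits, FDPS in 4 of 6, the exceptions being WT replicate 1 and Tyr19Phe replicate 2 (adjusted p up to 0.0933), and HMGCS1 in 2 of 6, those without Tyr19Phe replicate 2 or 3 (adjusted p up to 0.247 in the others). HMGCS1 was also not called without the filter on low counts or in a fit of the compared groups only (adjusted p up to 0.0598). PMVK, the phosphomevalonate kinase, had a log2 fold change of -0.18 (SE 0.14, adjusted p = 0.457), and ACAT2 one of 0.14 (SE 0.07, adjusted p = 0.182).

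Of the squalene and sterol steps, NSDHL, a sterol dehydrogenase that removes C4 methyl groups, rose from 24.6, 26.4 and 26.2 CPM to 31.8, 32.7 and 32.6 CPM without overlap (log2 fold change 0.33, SE 0.10, adjusted p = 0.0132). DHCR7, the reductase that makes cholesterol from its last precursor, had 45.5, 56.6 and 50.9 CPM in WT CDK9 and 61.1, 61.5 and 58.8 CPM in Tyr19Phe CDK9 cells (log2 fold change 0.25, SE 0.08, adjusted p = 0.0253). FDFT1, the squalene synthase, had log2 fold change 0.18 (SE 0.05, adjusted p = 0.0104), and MSMO1, a sterol methyl oxidase, 0.20 (SE 0.07, adjusted p = 0.0310). The groups of MSMO1 overlapped, with 89.7, 81.3 and 99.7 CPM in WT CDK9 and 105.8, 98.9 and 105.7 CPM in Tyr19Phe CDK9 cells. FDFT1 was called in 6 of 6 fits with a library left out and NSDHL in 5 of 6, the exception being WT replicate 1 (adjusted p = 0.0669). MSMO1 was called in 2 of 6, those without WT replicate 3 or Tyr19Phe replicate 2, and DHCR7 in 2 of 6, those without WT replicate 2 or Tyr19Phe replicate 3 (adjusted p up to 0.213 and 0.201 in the others).

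TM7SF2 (ENSG00000149809, chromosome 11 from 65111845 to 65116384), a sterol C14 reductase, went the other way. It had 12.6, 13.4 and 12.6 CPM in WT CDK9 cells and 7.08, 5.05 and 6.79 CPM in Tyr19Phe CDK9 cells. It fell by 50.9% (log2 fold change -1.03, SE 0.17, adjusted p = 3.14e-05), and the call was kept in 6 of 6 fits with a library left out. Its RNA with the inhibitor was 13.6, 10.7 and 9.20 CPM, which overlapped WT CDK9. The remaining 6 sterol genes, SQLE, LSS, CYP51A1, HSD17B7, EBP and SC5D, were not called, with log2 fold changes from -0.15 for CYP51A1 to 0.58 for HSD17B7 (SEs 0.24 and 0.25).

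Of the controlling genes, SREBF2 (ENSG00000198911, chromosome 22 from 41833079 to 41907308) had 207, 198 and 195 CPM in WT CDK9 and 243, 229 and 233 CPM in Tyr19Phe CDK9 cells. The groups did not overlap, and SREBF2 rose by 17.5% (log2 fold change 0.23, SE 0.04, adjusted p = 2.22e-04). STARD4 (ENSG00000164211, chromosome 5 from 111496033 to 111512590), a soluble sterol carrier, rose from 40.3, 36.2 and 35.3 CPM to 50.2, 49.5 and 47.9 CPM (log2 fold change 0.40, SE 0.08, adjusted p = 7.23e-04). Both were called in 6 of 6 fits with a library left out. INSIG1 rose from 48.7, 49.1 and 48.2 CPM to 57.6, 56.8 and 54.6 CPM (log2 fold change 0.21, SE 0.07, adjusted p = 0.0359), but was called in 1 of 6 fits with a library left out, that without Tyr19Phe replicate 3 (adjusted p up to 0.109 in the others), and not without the filter on low counts (adjusted p = 0.0622). SREBF1 and INSIG2 had log2 fold changes of 0.28 and 0.31 (SEs 0.14 and 0.13, adjusted p = 0.194 and 0.0974), and SCAP 0.04 (SE 0.07, adjusted p = 0.755).

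**Figure D3:**
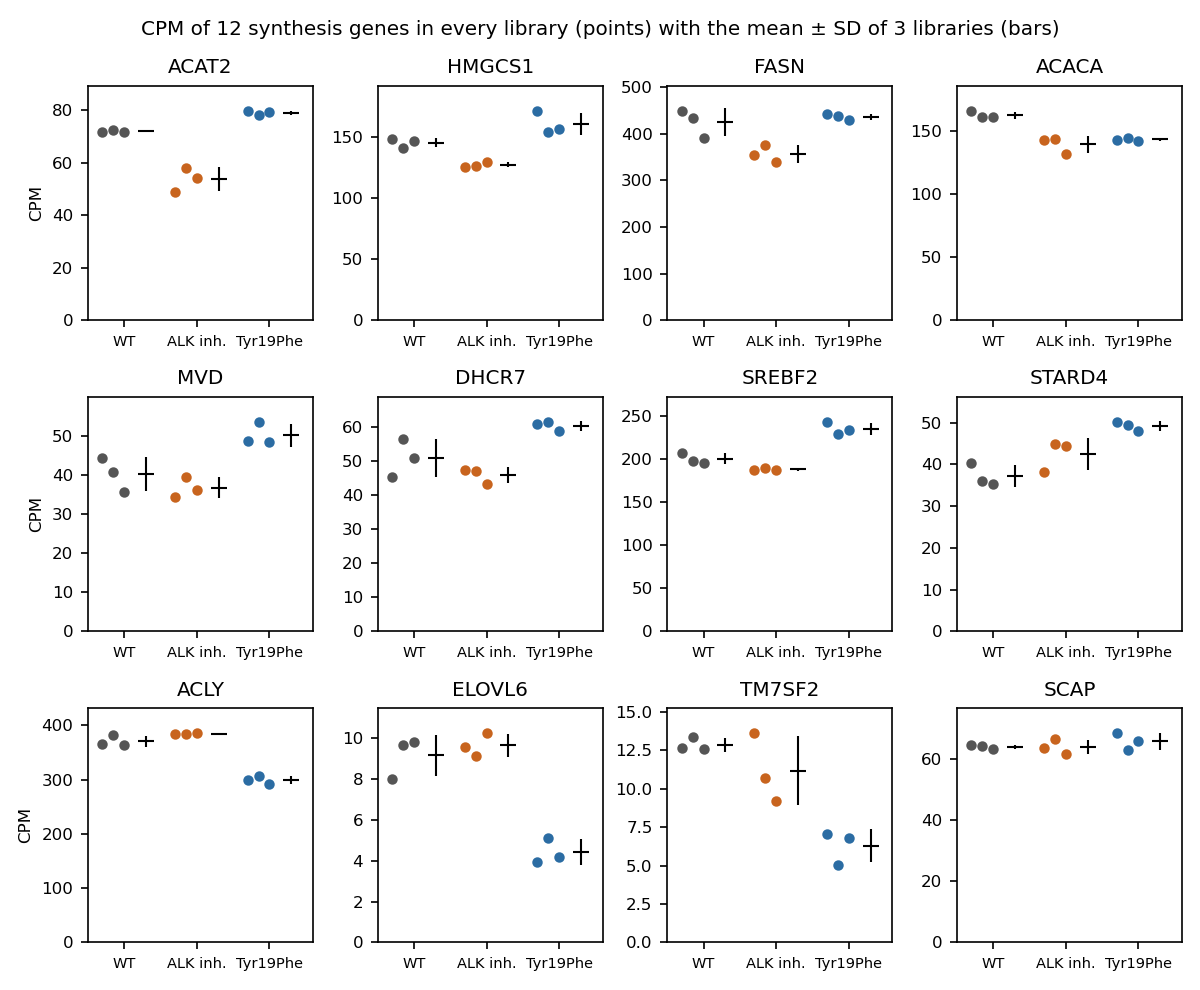
CPM (vertical axes, from 0) of 12 genes in each of the 3 libraries per group (points), with the mean ± SD of the group beside them. ACAT2, HMGCS1, FASN and ACACA are lower with the inhibitor; MVD, DHCR7, SREBF2 and STARD4 are higher and ACLY, ELOVL6 and TM7SF2 lower with Tyr19Phe CDK9; SCAP has 61.7 to 68.4 CPM throughout.

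Of the 8 fatty acid genes, 0 were called higher and 3 lower in Tyr19Phe CDK9 cells by edgeR, beside 7.61% and 10.4% of all tested genes, so that 0 of 8 is near the share over all genes. At an unadjusted p under 0.05, SCD and FADS1 were above 0, and DESeq2 called FADS1 higher (0.12 on the log2 scale, adjusted p = 0.0453). ACLY (ENSG00000131473, chromosome 17 from 41866908 to 41930542) had 366, 382 and 363 CPM in WT CDK9 and 299, 306 and 291 CPM in Tyr19Phe CDK9 cells. It fell by 19.4% (log2 fold change -0.31, SE 0.04, adjusted p = 3.52e-07). ELOVL6 (ENSG00000170522, chromosome 4 from 110045846 to 110199199), which elongates palmitate, had 8.004, 9.66 and 9.78 CPM in WT CDK9 and 3.93, 5.12 and 4.19 CPM in Tyr19Phe CDK9 cells. It fell by 51.7% (log2 fold change -1.05, SE 0.18, adjusted p = 5.09e-05). Both lay apart from all WT CDK9 libraries and were called in 6 of 6 fits with a library left out.

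ACACA had 143, 145 and 143 CPM in Tyr19Phe CDK9 cells and was the 1 gene of the 32 called lower against WT CDK9 in both comparisons, which share the WT CDK9 libraries (log2 fold change -0.18, SE 0.05, adjusted p = 0.00799 with Tyr19Phe CDK9). Without WT replicate 1 the adjusted p was 0.0553. FASN, by contrast, had 442, 438 and 429 CPM in Tyr19Phe CDK9 cells, within the range of the WT CDK9 libraries (log2 fold change 0.04, SE 0.04, adjusted p = 0.621). The desaturases SCD, FADS1 and FADS2 had log2 fold changes of 0.17, 0.12 and -0.04 (SEs 0.08, 0.05 and 0.07) and ACSS2, which makes acetyl-CoA from acetate, 0.11 (SE 0.09), with adjusted p from 0.0767 to 0.791.

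Some of these differences lay in chromosome segments whose other genes differed in the same direction in Tyr19Phe CDK9 cells. The median log2 fold change of the other tested genes within 5 Mb was 0.29 around IDI1 (26 genes), 0.20 around SREBF2 (161 genes), 0.20 around FDFT1 (37 genes) and -0.36 around ELOVL6 (35 genes). IDI1 and FDFT1 did not exceed their neighbours, with differences from the neighbours' median of -0.03 and -0.02 on the log2 scale, and SREBF2 exceeded them by 0.03. The other 9 genes called higher exceeded theirs by 0.07 to 0.45. MSMO1 stood 0.38 above neighbours whose median was -0.19, and STARD4 0.45 above. TM7SF2, ACLY and ACACA were called lower beside neighbours with medians of 0.07, -0.01 and -0.03. ELOVL6, also called lower, differed from the median of its neighbours by -0.69 on the log2 scale. With the inhibitor libraries in place of the WT CDK9 ones, the medians were 0.17 around IDI1, 0.22 around SREBF2 and -0.31 around ELOVL6. Around FDFT1 the median was then -0.002, so the value of its segment depended on the group compared. The part of the segments in these results was not tested.

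**Figure D4:**
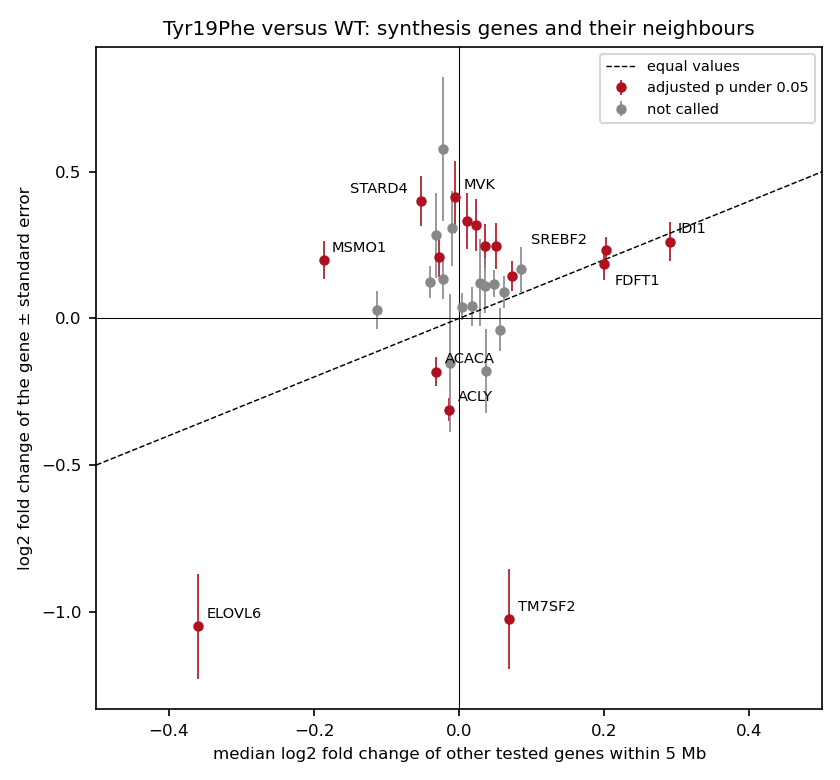
Log2 fold change ± standard error of each of the 32 genes in Tyr19Phe against WT CDK9 cells (vertical axis) against the median log2 fold change of the other tested genes within 5 Mb (horizontal axis); the dashed line marks equal values and red points have an adjusted p under 0.05. IDI1, SREBF2 and FDFT1 lie near the line at 0.20 to 0.29, and ELOVL6 lies below it at -0.36.

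The 3 Tyr19Phe CDK9 libraries were then tested against the 3 inhibitor libraries, which asks whether the mutant and inhibitor groups differ from each other. In Tyr19Phe CDK9 cells, 14 of the 32 genes were called higher than with the inhibitor and 4 lower, where 9.57% and 11.1% of all tested genes were called. Of the 18 cholesterol genes, 11 were called higher, with a median log2 fold change of 0.25 over the 18. ACAT2 differed by a log2 fold change of 0.56 (SE 0.07, adjusted p = 2.02e-07), HMGCS1 by 0.34 (SE 0.05, adjusted p = 7.16e-06), SREBF2 by 0.32 (SE 0.04, adjusted p = 1.48e-06) and FASN by 0.29 (SE 0.05, adjusted p = 9.66e-06). For these genes the 2 groups did not overlap. In this comparison the other tested genes within 5 Mb of SREBF2 (161 genes) had a median of 0.22. Around ACAT2, HMGCS1 and FASN the medians were 0.007, -0.0008 and 0.03. The part of the segments was not tested here either. MVK, MVD, FDPS, FDFT1 and DHCR7 followed, with log2 fold changes between 0.29 and 0.45, and each of these 9 was called in 6 of 6 fits with a library left out.

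SQLE, the squalene epoxidase, LSS, the lanosterol synthase, NSDHL, HSD17B7 and ACSS2 were also called higher, with log2 fold changes from 0.17 for SQLE to 0.83 for HSD17B7 and adjusted p from 0.0151 to 0.0382. With a library left out, SQLE was called in 4 of 6 fits (lost without ALK inhibitor replicate 1 or Tyr19Phe replicate 1), LSS and HSD17B7 in 3 of 6, and NSDHL and ACSS2 in 1 of 6. LSS was lost without ALK inhibitor replicate 1 or 3 or Tyr19Phe replicate 3, and HSD17B7 without ALK inhibitor replicate 1 or 2 or Tyr19Phe replicate 2. NSDHL was kept only without ALK inhibitor replicate 2 and ACSS2 only without ALK inhibitor replicate 1. The highest adjusted p of the 5 genes in these fits was 0.172. ACLY differed by -0.36 (SE 0.04, adjusted p = 1.51e-08), ELOVL6 by -1.13 (SE 0.18, adjusted p = 1.51e-05) and TM7SF2 by -0.83 (SE 0.17, adjusted p = 4.89e-04), all kept in 6 of 6 fits. Their neighbours within 5 Mb had medians of -0.0009 around ACLY, -0.31 around ELOVL6 and 0.07 around TM7SF2. PMVK, at 10.3, 13.5 and 10.6 CPM in Tyr19Phe CDK9 cells and 13.5, 17.2 and 16.0 CPM with the inhibitor, differed by -0.44 (SE 0.14, adjusted p = 0.0247) and was called in 2 of 6 fits with a library left out, those without ALK inhibitor replicate 1 or Tyr19Phe replicate 2 (adjusted p up to 0.113 in the others). ACACA did not differ beyond its error (log2 fold change 0.04, SE 0.05, adjusted p = 0.643).

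Summed over the 7 mevalonate genes, the level was 399 to 416 CPM in WT CDK9, 359 to 382 CPM with the inhibitor and 459 to 474 CPM in Tyr19Phe CDK9 libraries, and the groups did not overlap. The 11 squalene and sterol genes summed to 780 to 804, 741 to 778 and 827 to 899 CPM in the same order. The 6 SREBP pathway and sterol carrier genes summed to 365 to 388, 373 to 381 and 431 to 453 CPM. For these genes the inhibitor libraries lay within the WT CDK9 range. The 8 fatty acid genes summed to 1256 to 1312, 1201 to 1240 and 1202 to 1247 CPM. These sums are given as a description and are weighted to the most abundant genes. The 9 genes that edgeR called in no comparison, CYP51A1, EBP, SC5D, SREBF1, SCAP, INSIG2, SCD, FADS1 and FADS2, had log2 fold changes between -0.28 and 0.31 in the 3 comparisons, and of these DESeq2 called FADS1 higher in Tyr19Phe CDK9 than in WT CDK9 cells, as given above.

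A wider list of 54 lipid genes outside the 32 was examined for context, of which 53 were tested and 1, the sterol exporter gene ABCG1, had 0 counts in every library, below the floor of 3 counts. With the inhibitor 3 were called lower and 1 higher, beside 2.73% and 1.82% of all tested genes. They were ABCA1, a cholesterol exporter (log2 fold change -0.43, SE 0.10, adjusted p = 0.00528), ACSL3, which activates long-chain fatty acids (-0.26, SE 0.05, adjusted p = 0.00103), ELOVL7, an elongase (-0.25, SE 0.08, adjusted p = 0.0486), and STARD3, a lysosomal cholesterol carrier (0.34, SE 0.05, adjusted p = 7.89e-06). With Tyr19Phe CDK9 10 were called lower and 8 higher, beside 10.4% and 7.61% of all tested genes, with a median log2 fold change of 0.04. The smallest adjusted p belonged to ACSL1, another activating enzyme (-0.61, SE 0.07), SCD5, a desaturase (-0.82, SE 0.11), ABCA1 (-0.62, SE 0.10), ELOVL1, an elongase (0.30, SE 0.05), and CPT1A, which brings fatty acids to oxidation (-0.36, SE 0.07), with adjusted p between 2.33e-08 and 1.37e-04. ACSL1 and SCD5 lie on chromosome 4 among neighbours with medians of -0.22 and -0.26.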

How the data were processed

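RNA-seq was performed by a company on 9 libraries and reads were mapped by the authors to hg38. The submitters' processing notes name CASAVA, HISAT2 2.0.5 and featureCounts 1.5.0-p3, and the annotation release and strand setting are not given in the sources used here. The deposited table holds raw read counts per gene, not normalized, with 0 columns of other samples. Depth is given with the results. Counts were analysed with edgeR 4.0.16 (limma 3.58.1, R 4.3.3). Genes passed filterByExpr (minimum count 10, minimum total 15), libraries were scaled by TMM, and 1 quasi-likelihood model with a mean per group was fitted to the 9 libraries (6 residual degrees of freedom). P-values were adjusted over all tested genes by Benjamini-Hochberg. CPM are TMM-scaled. Standard errors are the absolute log2 fold change over the square root of F, so they include the spread between libraries of a group. The labels do not say whether libraries were separate cultures, so p-values measure the spread between these libraries, which may be technical. Chi-square per degree of freedom between libraries of a group was 4.23 to 8.71, so no library was treated as a duplicate.

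All 32 genes are accounted for, those called with CPM in each library where results turn on them, and of the wider lipid list up to 5 called genes per comparison are named. Members and lists were chosen with earlier results of these data known. Positions are those of the deposited table. Exon overlap used GENCODE release 44 (GenomicRanges 1.54.1), matched by gene identifier, and promoters came from RefSeq. Alternatives were DESeq2 1.42.0 size factors, DESeq2 itself, no filter, a replicate block, fits of the compared groups only, a minimum size of 0.5 on the log2 scale, and leaving out 1 library at a time. The code was tested on simulated counts.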

Additional observations from a re-analysis of the deposited data

How the results depend on the processing

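Scaling by DESeq2 size factors, DESeq2 itself, no filter on low counts, the replicate block and fits of the compared groups only left each count of called genes within 1.5 times its value, and the cause of the calls lost when a library was left out was not tested. A minimum size of 0.5 on the log2 scale left 0 genes lower and 0 higher with the inhibitor, 2 lower and 0 higher with Tyr19Phe CDK9, and 2 lower and 2 higher in the direct comparison, since most differences were smaller. With 1 library left out, the inhibitor comparison had 2 to 4 genes lower and 0 to 0 higher, the Tyr19Phe CDK9 comparison 3 to 4 lower and 6 to 10 higher, and the direct comparison 3 to 4 lower and 10 to 12 higher. Among the 23 genes called in at least 1 comparison, for which single values were refitted with a library left out, 8 values that were not called changed sign, with adjusted p from 0.779 to 0.997 in those fits. The log2 fold change then ranged from -0.1857 to 0.1323 for MVK, from -0.0155 to 0.09212 for NSDHL and from -0.01019 to 0.1282 for ELOVL6 with the inhibitor, and from -0.0404 to 0.1062 for LSS and -0.01215 to 0.08503 for FASN with Tyr19Phe CDK9. Titles share replicate numbers across groups, but libraries of the same number did not deviate together (correlations from -0.01 to 0.03), so they were not treated as pairs. With the replicate block, 4 genes were lower and 0 higher with the inhibitor, 4 lower and 12 higher with Tyr19Phe CDK9, and 4 lower and 14 higher in the direct comparison. Depth limits HSD17B7, CYP51A1, ELOVL6 and TM7SF2 most, whose standard errors were 0.17 to 0.26.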

Other observations

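STARD3, the lysosomal cholesterol carrier, had 157, 147 and 161 CPM in WT CDK9 cells and 195, 197 and 197 CPM with the ALK inhibitor, and in Tyr19Phe CDK9 cells 165, 161 and 172 CPM. It ends 24430 bases from the start of ERBB2 on chromosome 17, the receptor gene that SKOV3 cells carry amplified. The mean level of ERBB2 was 1800 CPM (SD 50.5, n = 3) without and 2625 CPM (SD 8.63, n = 3) with the inhibitor, which is 0.54 on the log2 scale (SE 0.03, adjusted p = 2.96e-13, edgeR). In Tyr19Phe CDK9 cells ERBB2 had 1470 CPM (SD 77.5, n = 3), lower than WT CDK9 by edgeR (-0.29, SE 0.03, adjusted p = 5.40e-08), and STARD3 was not called there (0.10, SE 0.05, adjusted p = 0.173). The 189 other tested genes within 5 Mb of STARD3 had a median log2 fold change of -0.02 with the inhibitor. Both genes were named here after their values had been seen, and whether they share a cause was not tested.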
